A study of Mus musculus with 12 samples.

Results

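Interferon-stimulated effector genes encode the proteins that carry out an antiviral state: they block virus entry and release, bind or edit double-stranded RNA, tag proteins with ubiquitin or ADP-ribose, and build nuclear bodies. The 33 genes described here are such effectors from outside the Oas, Ifit, Gbp, nucleic acid sensor, Irf and MHC families. They were chosen by symbol, and each matched a single Ensembl ID among the 55487 genes of the deposited count table. Type I interferons act through a receptor of Ifnar1 and Ifnar2 chains and the kinases Jak1 and Tyk2. The resulting transcription factor complex, which holds Stat2 and Irf9, binds interferon-stimulated response elements in the promoters of such genes. Kidney epithelial cells carry this pathway as most nucleated cells do.

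The data are 12 mRNA-seq libraries of MPC5, an immortalized mouse podocyte line, taken 24 hours after transfection. The vector group (6 libraries, genotype WT) received the empty plasmid, and the SPARCoe group (6 libraries, genotype Sparc overexpression) received a plasmid that carries Sparc, a matricellular collagen-binding protein. Each group received a single plasmid, so the Sparc insert and any other difference between the plasmid preparations cannot be told apart. The labels leave it unsaid whether replicates are independent cultures, and the p-values therefore speak only of library-to-library spread, which may be technical. Library totals ran from 33051035 to 47296258 counts in vector and from 34927871 to 47380987 in SPARCoe. Levels are given as CPM (read counts scaled by library total, with TMM factors), and a value after ± is the SD over the 6 libraries of a group unless it is named as a standard error (SE). Calls are edgeR quasi-likelihood tests over 15734 genes, two-sided, at a Benjamini-Hochberg adjusted p under 0.05.

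The overexpressed gene checked the labels: Sparc stood at 750.6 ± 11.2 CPM in vector and 10112.6 ± 260.0 in SPARCoe. The cell type label was only partly borne out. Among the podocyte markers, Nphs1, Wt1 and Ptpro were too low for the test, at a group mean of 0.206 CPM or less. Synpo and Podxl stood at 66.6 and 88.5 CPM in vector. The 10 podocyte markers together summed to 873.1 to 900.5 CPM per vector library and 792.0 to 820.7 per SPARCoe library. Of the 6 tested podocyte markers, 2 rose, among them Podxl, and 2 fell (Synpo and Kirrel). Of 6 tubule markers 4 were tested and all 4 fell, among them Lrp2 and Pax8, which had 257.7 and 155.7 CPM in vector cells. The 6 tubule markers together summed to 483.7 to 505.3 CPM per vector library and 355.0 to 373.2 per SPARCoe library. Leukocyte markers were scarce: the 10 together summed to 17.9 to 22.2 CPM per vector library and 19.1 to 20.9 per SPARCoe library. Csf1r fell and Cd14 rose among the 3 that were tested, and the pan-leukocyte gene Ptprc was at 0.101 and 0.160 CPM. Plasmacytoid dendritic cells, strong interferon producers, are marked by Siglech, which had 0 counts in vector and 6 in SPARCoe in all. Of the 4 tested markers of these cells 2 rose, Tlr7 and Bst2, the latter also an effector gene described here. Tlr7 was low and met the filter on low counts only with the SPARCoe libraries. The 7 endothelial markers summed to 2.04 to 3.05 CPM per vector library and 2.22 to 3.73 per SPARCoe library, and of the 3 tested 1 rose and 1 fell. Among all tested genes 14.9% rose and 14.1% fell. The part of these markers in the results was not tested. The first principal component (45.2% of variance) separated the groups, and vector replicate 4 stood apart on the second (7.34%); without it the effector genes below gave the same 27 rises and 1 fall in number.

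Of the 33 effector genes, 32 passed the filter on low counts, 27 of them rose, 1 fell and 4 did not pass the test. Among all 15734 tested genes, 14.9% rose and 14.1% fell. The median log2 fold change of the 32 genes was 0.58, beside -0.003 over all tested genes. All 6 SPARCoe libraries lay above all 6 vector libraries for 26 of the 32 genes, against 8.57% of all tested genes. For Ifi27, all SPARCoe libraries lay below all vector libraries, which held for 7.04% of all tested genes. In bulk RNA, more responding cells and more RNA per responding cell cannot be told apart. Most rises were modest: 25 genes rose 1.2-fold or more (8.61% of all tested genes did), 15 rose 1.5-fold or more (5.48%), and 3 rose 2-fold or more (3.30%). Those 3 were Trim30a, Mx2 and Ifi44.

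**Figure D1:**
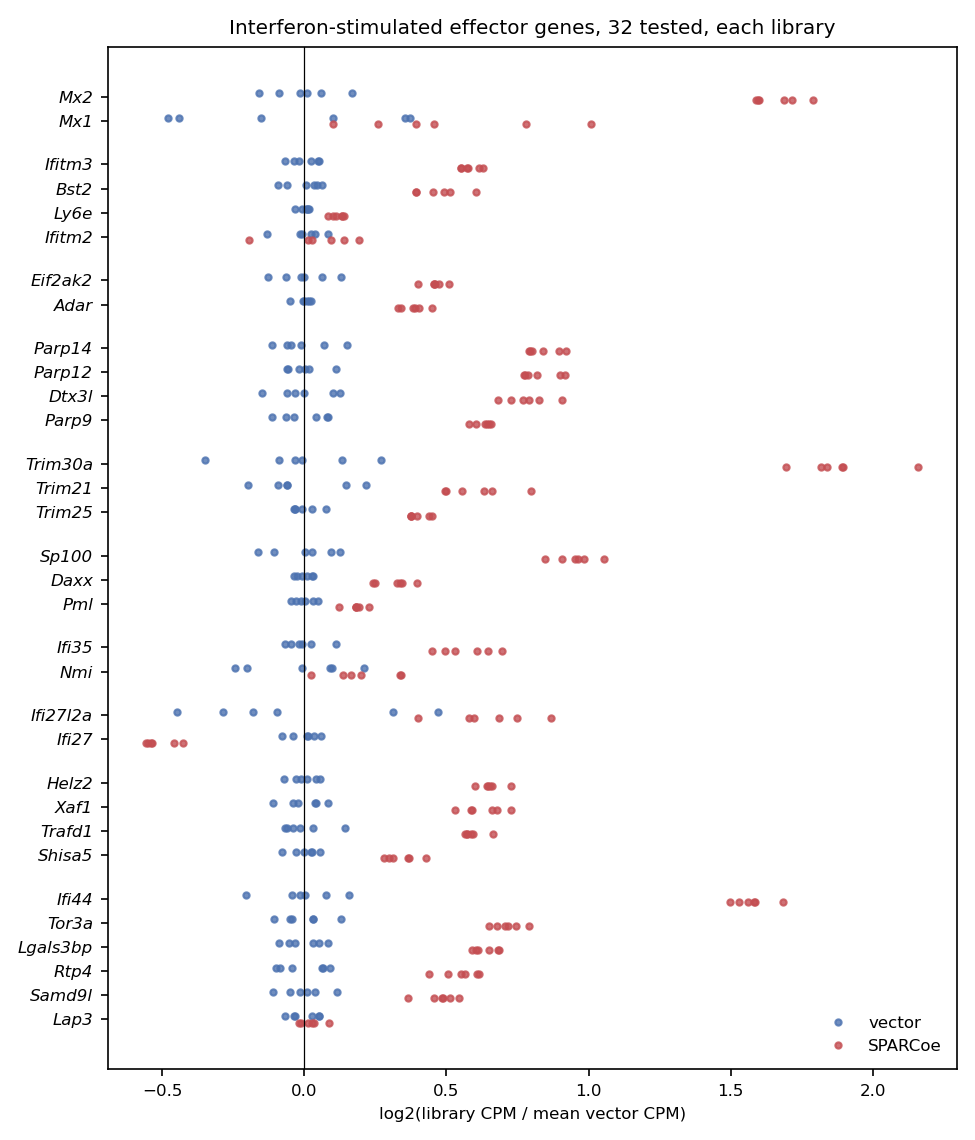
Each point is a library: log2 of its CPM over the mean CPM of the 6 vector libraries (x axis), for the 32 tested effector genes grouped by role (y axis), blue for vector and red for SPARCoe. The groups are apart for 27 genes, Ifi27 being the one shifted to the left, and Mx1, Ifitm2, Nmi, Ifi27l2a and Lap3 overlap.

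Levels of different genes are compared per length, with the deposited FPKM (counts scaled by 1 length per gene and library total). The lengths these values imply were, for example, 877 bases for Lap3 and 2625 for Adar. Whether they fit the transcripts made in these cells was not tested, so the order of genes is approximate. The SDs do not cover an error in length. In vector cells the genes already differed widely. Ly6e (679.3 ± 10 FPKM) and Bst2 (616.0 ± 26.7 FPKM) were the highest, followed by Ifitm3 (329.6 ± 11.4 FPKM). Shisa5, Lap3, Lgals3bp and Ifi27 followed at 190.2, 188.7, 177.1 and 161.0 FPKM, and the first 2 of these did not differ beyond their SDs of 6.55 and 6.33. Then came Eif2ak2 at 95.3 and Pml at 93.2 FPKM, again within their SDs of 6.08 and 2.05. At the low end stood Sp100 (4.85 FPKM), Mx2 (4.76 FPKM), Ifi27l2a (4.27 FPKM), Trim30a (1.69 FPKM) and Mx1 (0.346 FPKM). Ifitm1 was close to silent at 0.0249 FPKM.

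In SPARCoe cells Bst2 (857.2 ± 46.1 FPKM) stood above Ly6e (736.4 ± 11 FPKM), the reverse of the vector order. Mx2 moved from rank 29 to rank 25 of the 33 genes and Ifi44 from 26 to 22, while Ifi27 moved from rank 7 to 8. The 3 genes that rose 2-fold or more all started under 10 FPKM in vector. By counts, 10 of the 32 genes had a vector mean under 20 CPM. Of these, 7 rose (median log2 fold change 0.64), where 14.7% of tested genes of that level rose and 5.35% fell. All 9 genes from 20 to under 100 CPM rose (median 0.63), where 15.4% of tested genes of that level rose and 19.9% fell. Of the 13 genes at 100 CPM or more, 11 rose and 1 fell (median 0.40), where 14.5% of the 2488 tested genes of that level rose and 31.4% fell. Rises were found at all 3 levels.

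**Figure D2:**
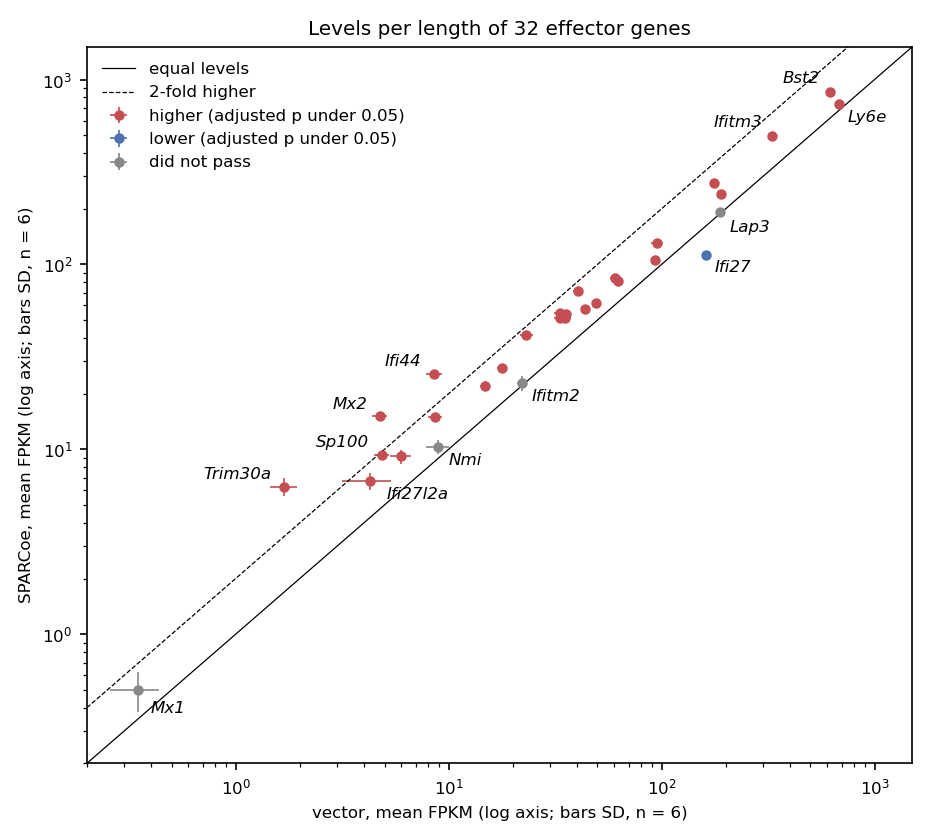
Mean FPKM in SPARCoe (y) against vector (x) on log axes for 32 effector genes, bars SD over 6 libraries, red for genes that rose, blue for the gene that fell, grey for those that did not pass; Ifitm1, at 0.0249 FPKM in vector, is left out. The dashed line marks a 2-fold rise, which Mx2, Ifi44 and Trim30a exceed, and Ifi27 is the point below the line of equal levels.

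The core of the interferon-stimulated response element was searched as GAAA, any 2 bases and GAAA again or, on the other strand, TTTC, any 2 bases and TTTC, in RefSeq promoter windows of 300 bases (GRCm38.p6; 250 bases before to 50 after each annotated start). Windows were at hand for 24 of the 33 genes, and 7 of these genes had a match (29.2%), against 3.99% of all 27025 genes in that table. A gene counted if any of its windows matched. By window, 22.9% of the 35 windows of these genes matched, against 3.44% of all 32851 windows. The 7 were Bst2, Eif2ak2, Ifitm2, Ifitm3, Shisa5, Trim21 and Trim30a. Of the 7, 6 rose and Ifitm2 did not pass, and of the 17 genes with a window and no match (the untested Ifitm1 among them) 14 rose. The core of the gamma-activated site, TTCNNNGAA, which reads the same on both strands, was in 6 of the 24 genes (25.0%) and in 9.55% of all genes. By window the shares were 17.1% and 8.3%. A match is a description of letters and not of binding. Only the exact core was searched, so no match does not mean that a response element is absent. Windows of Adar, Helz2 and Xaf1, for example, hold GAAACGAAA, a close variant that was not counted. The windows of Ifitm3, Eif2ak2 and Trim30a are printed because each led its role group in fold change and held the response element core. That of Ifitm2 is printed for contrast, chosen after its values were seen. All 4 lie on minus-strand genes and are written 5′ to 3′ along the gene, with the core in capitals.
Ifitm3 promoter, chr7:141010695-141010994: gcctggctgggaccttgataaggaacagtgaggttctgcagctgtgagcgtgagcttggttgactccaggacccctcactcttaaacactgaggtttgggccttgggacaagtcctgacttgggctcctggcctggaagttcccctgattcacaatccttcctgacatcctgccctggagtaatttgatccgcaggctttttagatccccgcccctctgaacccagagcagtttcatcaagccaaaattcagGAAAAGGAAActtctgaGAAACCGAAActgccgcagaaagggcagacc
Ifitm2 promoter, chr7:140955912-140956211: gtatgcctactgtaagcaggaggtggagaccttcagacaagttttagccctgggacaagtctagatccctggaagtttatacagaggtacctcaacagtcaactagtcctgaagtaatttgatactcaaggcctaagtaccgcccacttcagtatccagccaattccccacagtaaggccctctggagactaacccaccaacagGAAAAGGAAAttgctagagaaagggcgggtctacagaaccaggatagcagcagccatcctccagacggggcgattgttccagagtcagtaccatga
Eif2ak2 promoter, chr17:78882523-78882822: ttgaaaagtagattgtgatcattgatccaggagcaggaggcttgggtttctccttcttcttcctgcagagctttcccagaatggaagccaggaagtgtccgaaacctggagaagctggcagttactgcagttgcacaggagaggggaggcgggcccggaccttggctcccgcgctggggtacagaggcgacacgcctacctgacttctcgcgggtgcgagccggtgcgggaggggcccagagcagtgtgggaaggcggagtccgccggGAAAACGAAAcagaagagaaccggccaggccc
Trim30a promoter, chr7:104465144-104465443: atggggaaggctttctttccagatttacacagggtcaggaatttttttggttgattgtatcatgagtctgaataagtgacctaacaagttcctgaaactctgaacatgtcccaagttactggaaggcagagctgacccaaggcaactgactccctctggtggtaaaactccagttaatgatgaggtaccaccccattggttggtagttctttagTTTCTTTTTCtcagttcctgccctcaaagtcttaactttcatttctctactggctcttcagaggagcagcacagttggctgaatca
Counting the start as base 1 with no base 0, the Ifitm3 window held the core at bases 3 to 12 and 20 to 29, and a gamma-activated site core at bases 14 to 22 that overlaps the second of them. In Ifitm2 the single core lay upstream, at bases -46 to -37. Eif2ak2 held it at bases 19 to 28 and Trim30a at -36 to -27. A second annotated Trim30a start, further inside the gene, had the core at bases 3 to 12.

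**Figure D3:**
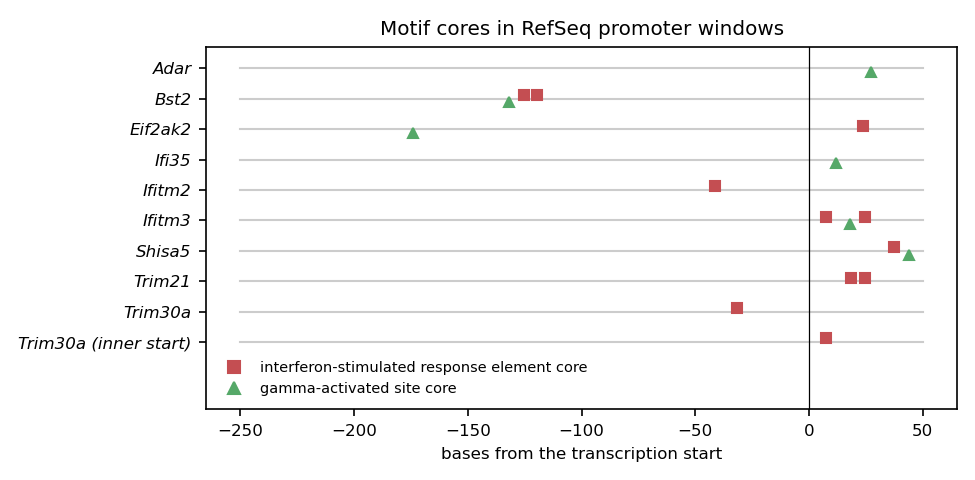
Positions of the response element core (red squares) and the gamma-activated site core (green triangles) in bases from the annotated start (x axis) for each effector gene with a match (y axis); grey lines span the 300-base windows. The Ifitm3, Trim21 and Eif2ak2 response element cores lie within 29 bases after the start, and those of Bst2 lie 115 to 130 bases before it.

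The dynamin-like GTPases Mx1 and Mx2 assemble on viral ribonucleoproteins, in the mouse mainly in the nucleus and in the cytoplasm, respectively. Mx2 measured 7.24 to 9.09 CPM over the 6 vector libraries (median 8.08) and 24.3 to 28.0 CPM over the 6 SPARCoe libraries (median 25.3). The groups were far apart, and Mx2 rose 3.17-fold (log2 fold change 1.67 ± 0.06, SE; edgeR adjusted p = 7.2e-26). Mx1, which is defective in many laboratory mouse strains, measured 0.383 to 0.690 CPM over the 6 vector libraries (median 0.526) and 0.572 to 1.07 CPM over the 6 SPARCoe libraries (median 0.716). Its groups overlapped, with 4 SPARCoe libraries above the highest vector library, and it did not pass (log2 fold change 0.54 ± 0.25, SE; edgeR adjusted p = 0.11; 95% interval 0.03 to 1.06). The genes lie 72400 bases apart on chromosome 16 with 1 coding gene between (chr16:97447035-97462907 and chr16:97535308-97560900, GENCODE M21, GRCm38), and 3.86% of the 50-base words of Mx1 transcripts also occur in Mx2.

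Membrane proteins that hinder virus entry or release differed from one another. Ifitm3, which blocks fusion of viruses in endosomes, measured 213.1 to 231.5 CPM over the 6 vector libraries (median 223.9) and 327.5 to 345.4 CPM over the 6 SPARCoe libraries (median 332.8). The groups did not overlap, and Ifitm3 rose 1.5-fold (log2 fold change 0.58 ± 0.02, SE; edgeR adjusted p = 5.9e-25). Its close relative Ifitm2, whose promoter also holds the core printed above, measured 13.2 to 15.3 CPM over the 6 vector libraries (median 14.5) and 12.6 to 16.5 CPM over the 6 SPARCoe libraries (median 15.0). These values overlapped, with 3 SPARCoe libraries above the vector range and 1 below it. Ifitm2 did not pass (log2 fold change 0.05 ± 0.06, SE; edgeR adjusted p = 0.621; 95% interval -0.08 to 0.17). Ifitm1 had 4 counts in vector and 2 in SPARCoe in all, too few for the test. The 3 genes lie side by side on chromosome 7, Ifitm2 and Ifitm1 11233 bases apart and Ifitm1 and Ifitm3 39760 bases apart. Of the 50-base words of Ifitm2 transcripts, 48.5% occur in other annotated genes, 36.1% in the overlapping model Gm45717 (0 counts), against 10.0% for Ifitm3, so the Ifitm2 value is uncertain.

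Bst2, or tetherin, which holds budding virions at the cell surface, measured 347.7 to 387.5 CPM over the 6 vector libraries (median 375.8) and 487.0 to 564.0 CPM over the 6 SPARCoe libraries (median 514.8). It rose 1.39-fold with no overlap between groups (edgeR adjusted p = 5.69e-07). Ly6e, a lipid-anchored surface protein that restricts coronavirus entry, measured 710.7 to 735.1 CPM over the 6 vector libraries (median 731.3) and 770.0 to 800.8 CPM over the 6 SPARCoe libraries (median 791.4). The highest transcript of the set in vector thus had the smallest passing rise, 1.08-fold (edgeR adjusted p = 4.85e-07), and no library of one group reached the other.

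Both enzymes that act on double-stranded RNA rose. Eif2ak2, or PKR, the kinase that halts translation when it binds double-stranded RNA, measured 135.7 to 162.1 CPM over the 6 vector libraries (median 147.6) and 195.6 to 210.8 CPM over the 6 SPARCoe libraries (median 203.6). Every SPARCoe library was above every vector library (log2 fold change 0.46 ± 0.03, SE; edgeR adjusted p = 2.04e-12). Adar, which edits adenosine to inosine in double-stranded RNA and so limits its sensing, rose 1.3-fold, with a mean of 164.5 ± 2.9 CPM in vector cells against 214.4 ± 6.59 in SPARCoe cells (edgeR adjusted p = 2.83e-18). The exons of Adar overlap those of the antisense gene Chrnb2, and without a stated strand setting their reads cannot be told apart. The other eIF2alpha kinases and the second catalytic ADAR gene behaved otherwise: Eif2ak4 and Eif2ak3 fell (log2 fold change -0.11 and -0.17), and Eif2ak1 and Adarb1 did not pass (log2 fold change 0.02 and -0.02).

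All 4 genes of the ADP-ribosylation group rose, by 1.55-fold to 1.79-fold. Parp14, a mono-ADP-ribosyltransferase with macrodomains, measured 86.1 to 103.3 CPM over the 6 vector libraries (median 91.3) and 160.9 to 176.3 CPM over the 6 SPARCoe libraries (median 164.5). Its groups were apart (log2 fold change 0.84 ± 0.04, SE; edgeR adjusted p = 1.75e-14), as were those of Parp12, a mono-ADP-ribosyltransferase that binds RNA, which rose 1.78-fold with a mean of 85.4 ± 3.84 CPM in vector cells against 151.8 ± 6.9 in SPARCoe cells. Parp9 and Dtx3l, whose proteins form a ubiquitin ligase complex, rose 1.55-fold and 1.73-fold. They are head-to-head neighbours on chromosome 16 (chr16:35938470-35972605 on the plus strand and chr16:35926511-35939151 on the minus strand) and overlap by 682 bases, so some reads could belong to either. Parp14 lies next to them, 54966 bases from Dtx3l with no coding gene between. In a list of 15 PARP and DTX relatives outside the set, 4 rose (26.7%, against 14.9% of all tested genes) and 2 fell. The list median was -0.01. Parp10 was the relative with the largest rise (1.75-fold, with a mean of 61.8 ± 2.95 CPM in vector cells against 108.1 ± 4.41 in SPARCoe cells), and smaller changes passed for Parp11, Tiparp and Parp2 (log2 fold change 0.41, 0.26 and -0.15).

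The 3 TRIM ubiquitin ligases all rose, and by very different amounts. Trim30a, a mouse regulator that restrains Toll-like receptor signalling, measured 2.05 to 3.14 CPM over the 6 vector libraries (median 2.57) and 8.45 to 11.7 CPM over the 6 SPARCoe libraries (median 9.49). The highest fold of the 32 genes was 3.69 (log2 fold change 1.88 ± 0.10, SE; edgeR adjusted p = 5.82e-20), with the lowest SPARCoe library well above the highest vector library. Trim21, the cytosolic antibody receptor, rose 1.53-fold, with a mean of 8.88 ± 0.985 CPM in vector cells against 13.6 ± 1.11 in SPARCoe cells. Trim25, which modifies the RNA sensor RIG-I, rose 1.32-fold, with a mean of 182.6 ± 5.7 CPM in vector cells against 241.3 ± 5.77 in SPARCoe cells. Trim30a shares 5.98% of its 50-base words with Trim30d. Of 18 other TRIM genes, 4 rose (22.2%, against 14.9% of all tested genes) and 3 fell with a median of 0.01. Trim32, Trim11 and Trim26 rose (log2 fold change 0.26, 0.29 and 0.22) and Trim35 fell (-0.12).

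Genes of PML nuclear bodies rose together, again by unequal amounts. Sp100, a resident of these bodies, measured 6.27 to 7.65 CPM over the 6 vector libraries (median 7.09) and 12.6 to 14.6 CPM over the 6 SPARCoe libraries (median 13.6). That is a 1.94-fold rise with separate groups (log2 fold change 0.95 ± 0.07, SE; edgeR adjusted p = 2.49e-15). Pml, the scaffold of the bodies, rose 1.13-fold, with a mean of 201.9 ± 5.12 CPM in vector cells against 229.1 ± 5.46 in SPARCoe cells. The histone chaperone gene Daxx rose 1.25-fold, with a mean of 49.7 ± 0.968 CPM in vector cells against 61.9 ± 2.55 in SPARCoe cells. For both, the highest vector library stayed under the lowest SPARCoe library, at 209.1 against 219.7 CPM for Pml and 50.8 against 58.8 CPM for Daxx.

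Ifi35 and Nmi encode partners that bind each other and stabilise one another. Ifi35 measured 16.5 to 18.6 CPM over the 6 vector libraries (median 17.1) and 23.6 to 27.9 CPM over the 6 SPARCoe libraries (median 25.6). No library of one group reached the other and Ifi35 rose 1.49-fold (log2 fold change 0.57 ± 0.05, SE; edgeR adjusted p = 1.09e-12). Nmi measured 6.59 to 9.03 CPM over the 6 vector libraries (median 8.04) and 7.94 to 9.88 CPM over the 6 SPARCoe libraries (median 8.85). Those groups overlapped, with 2 SPARCoe libraries above the highest vector library, and Nmi did not pass (log2 fold change 0.20 ± 0.08, SE; edgeR adjusted p = 0.0539). It was on the edge of the threshold: with DESeq2 it passed (adjusted p = 0.0482), and so it did in 8 of 25 alternatives. In the test against a 1.2-fold change it did not pass, and in the other alternatives its adjusted p ran from 0.0232 to 0.153. Leaving out vector replicate 1, 2 or 5 or SPARCoe replicate 1 was enough for it to pass.

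The pair of ISG12 genes moved in opposite directions. Ifi27, a small hydrophobic protein of the ISG12 family and a widely used marker of interferon exposure in humans, measured 111.2 to 122.1 CPM over the 6 vector libraries (median 118.0) and 79.7 to 87.2 CPM over the 6 SPARCoe libraries (median 80.8). All 6 SPARCoe libraries were below all 6 vector libraries, and Ifi27 fell (log2 fold change -0.51 ± 0.03, SE; edgeR adjusted p = 3.57e-19). Ifi27l2a, from the same family, measured 1.45 to 2.74 CPM over the 6 vector libraries (median 1.80) and 2.61 to 3.61 CPM over the 6 SPARCoe libraries (median 3.08). It rose 1.59-fold (log2 fold change 0.67 ± 0.14, SE; edgeR adjusted p = 0.000261), although 1 SPARCoe library lay within the vector range. The genes are 1927 bases apart on chromosome 12 (chr12:103434211-103440239 and chr12:103442167-103443680). In GENCODE M21, Ifi27 shares no 50-base word with another gene and overlaps none. Leaving out single libraries gave log2 fold changes of -0.53 to -0.50.

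Adaptors of cell death and signalling rose in 4 of 4 cases. Helz2, a helicase that co-activates nuclear receptors, measured 257.1 to 280.7 CPM over the 6 vector libraries (median 270.1) and 410.0 to 446.7 CPM over the 6 SPARCoe libraries (median 423.8). Its groups were apart (log2 fold change 0.66 ± 0.02, SE; edgeR adjusted p = 9.94e-27). Xaf1, which binds the apoptosis inhibitor XIAP, rose 1.55-fold, with a mean of 24.6 ± 1.16 CPM in vector cells against 38.0 ± 1.89 in SPARCoe cells. Trafd1, a feedback inhibitor of innate signalling, rose 1.51-fold, with a mean of 47.1 ± 2.65 CPM in vector cells against 70.9 ± 1.83 in SPARCoe cells. Shisa5, an endoplasmic reticulum protein also induced by p53, had the smallest change of the 4 at 1.27-fold, with a mean of 151.0 ± 4.98 CPM in vector cells against 191.5 ± 7.5 in SPARCoe cells, and its groups did not overlap.

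Among the remaining effectors 5 of 6 rose. Ifi44, a cytoplasmic protein of strong interferon inducibility, measured 14.7 to 18.9 CPM over the 6 vector libraries (median 16.8) and 47.8 to 54.4 CPM over the 6 SPARCoe libraries (median 50.3). It had the smallest adjusted p of the 32 genes (log2 fold change 1.58 ± 0.05, SE; edgeR adjusted p = 7.46e-29). Tor3a, a torsin ATPase of the endoplasmic reticulum, rose 1.64-fold, with a mean of 62.2 ± 3.61 CPM in vector cells against 102.1 ± 3.56 in SPARCoe cells. The secreted galectin-binding glycoprotein gene Lgals3bp rose 1.56-fold, with a mean of 169.9 ± 7.95 CPM in vector cells against 264.3 ± 7.47 in SPARCoe cells. Rtp4, a chaperone of G protein-coupled receptors that also acts against flaviviruses, rose 1.46-fold, with a mean of 42.9 ± 2.51 CPM in vector cells against 62.8 ± 2.81 in SPARCoe cells. Samd9l, a restriction factor of poxviruses, rose 1.39-fold, with a mean of 174.2 ± 9.24 CPM in vector cells against 242.4 ± 10.1 in SPARCoe cells. Lap3, a leucine aminopeptidase, was the exception and measured 157.9 to 171.8 CPM over the 6 vector libraries (median 165.3) and 163.3 to 175.9 CPM over the 6 SPARCoe libraries (median 167.9). Only 1 SPARCoe library exceeded the vector range, and the difference did not pass (log2 fold change 0.02 ± 0.02, SE; edgeR adjusted p = 0.567; 95% interval -0.03 to 0.07). Relatives from the torsin, galectin and IFITM families split: of 8 genes, 4 rose and 3 fell, Lgals9, Lgals8 and Lgals3 rising (log2 fold change 0.37, 0.19 and 0.10) and Ifitm10 falling from 8.89 to 6.63 CPM.

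The effector genes also differed a little among libraries of a group. In vector replicates 1 and 2, 25 of 32 genes lay above their vector mean, against 5 in replicate 3, 12 in replicate 4, 17 in replicate 5 and 7 in replicate 6. The median log2 ratio to the vector mean ranged over the vector libraries from -0.039 to 0.052, and over the SPARCoe libraries from 0.515 to 0.608, while all tested genes had medians between -0.009 and 0.000 in all 12 libraries. The 12 values fell in separate ranges with nothing between. Vector totals in replicate order were 39015565, 39553158, 43275267, 33051035, 41716589 and 47296258 counts, and their part in this pattern was not tested. Summed over the 33 genes, vector libraries held 3648.0 ± 58.1 CPM and SPARCoe libraries 4868.7 ± 48.0. The coefficient of variation within a group had a median of 5.11% in vector and 4.14% in SPARCoe.

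**Figure D4:**
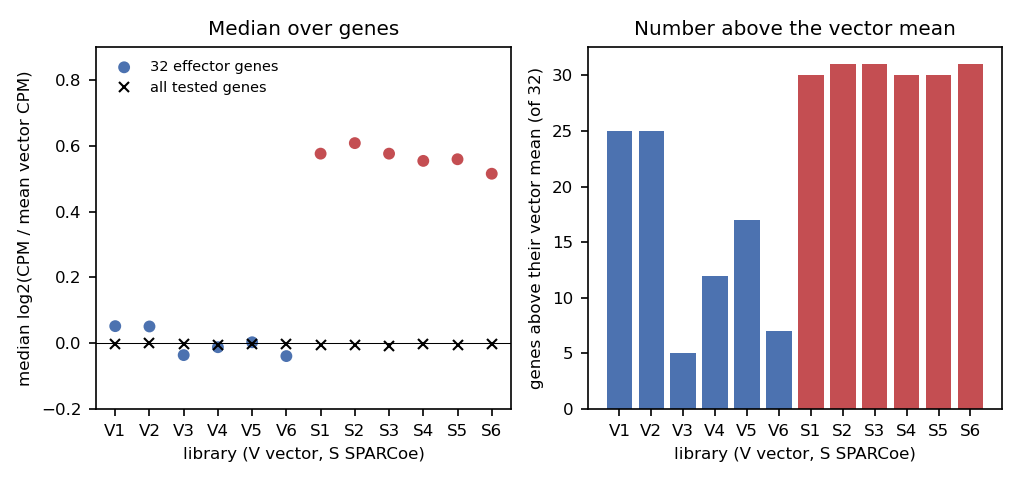
Left, median over 32 effector genes of log2(CPM over mean vector CPM) per library (points) with the same median over all 15734 tested genes (crosses); right, number of the 32 genes above their vector mean per library. SPARCoe libraries (S1 to S6) lie between 0.515 and 0.608 with 30 or 31 genes above, vector libraries (V1 to V6) between -0.039 and 0.052 with 5 to 25 genes above.

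Upstream in the pathway, interferon transcripts were scarce but not equal between groups. Ifnb1, the interferon beta gene, had 0 to 6 counts per vector library (median 2) and 25 to 63 per SPARCoe library (median 36). The vector counts were too low for the filter, so Ifnb1 entered the test through the SPARCoe libraries alone. Its call (log2 fold change 3.78 ± 0.39, SE; edgeR adjusted p = 1.09e-10) thus rests on a near-empty vector group and is no support of its own. Ifna4 was too low for the test, with 0 counts in each vector library and 8 to 12 in each SPARCoe library, 59 in all. Of the 12 other interferon genes of the list, none exceeded 6 counts in any library, and Ifna6, Ifna11, Ifng and Ifnl2 had 0 counts in all 12, where 3 counts correspond to 0.0633 to 0.0908 CPM.

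Of 8 tested receptors and kinases, 1 rose (12.5%) and 2 fell, with a median of -0.01. Among all tested genes 14.9% rose and 14.1% fell, so the share of receptors and kinases that rose was near the general one. Ifnar1 and Ifngr1, receptor chains for type I and type II interferon, fell (log2 fold change -0.12 and -0.30), and Jak2 rose (0.22). Transcription factors rose in 7 of 9 cases (77.8%, median 0.22). Irf7, which drives interferon expression, rose by 0.87, and Stat2 and Irf9 by 0.62 and 0.22 on the log2 scale. Of 9 feedback inhibitors, 2 rose (22.2%) and 2 fell (median -0.03). Usp18, which removes Isg15 and blocks the type I receptor, rose 2.38-fold, with a mean of 21.7 ± 1.76 CPM in vector cells against 51.8 ± 3.16 in SPARCoe cells, Socs3 rose less (log2 fold change 0.27), and Pias1 and Ptpn6 fell (-0.16 and -0.22).

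The sister effector families rose too. All 9 genes of the Oas list rose, with a median log2 fold change of 0.99, led in adjusted p by Oasl2, Oasl1, Oas1a and Oas3 (0.99, 0.79, 1.05 and 0.78). Among Ifit and Isg15 conjugation genes 9 of 10 rose (median 0.71), among them Isg15 by 0.62, Ube2l6 by 0.81, Ifit1 by 1.19 and Uba7 by 0.52. Of 14 Gbp and immunity GTPase genes 11 rose (median 0.82), among them Gbp3 by 1.18, Gbp9 by 0.86, Igtp by 0.97 and Gbp5 by 2.04. The 3 medians are above the 0.58 of the genes described here, a difference that was not tested. The 45 relatives, chosen by family and outside these lists, had 12 rises and 10 falls with a median of -0.01. The share that rose was 26.7%, against 14.9% of all tested genes, and 14.1% of all tested genes fell. The relatives were thus not without change.

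**Figure D5:**
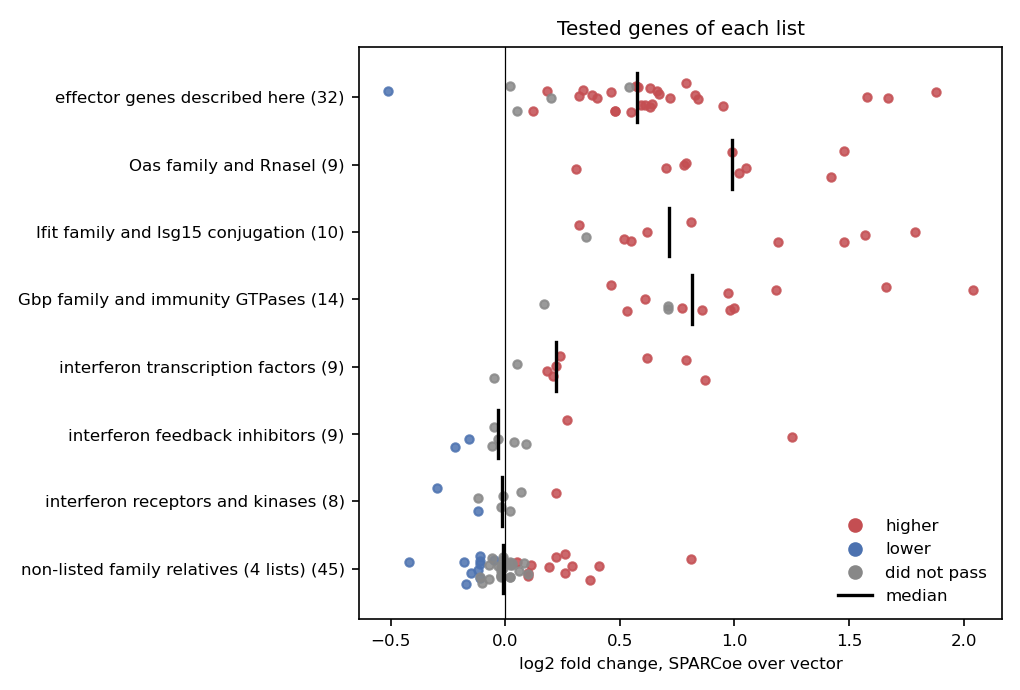
Log2 fold change of SPARCoe over vector (x axis) for each tested gene of the effector set and of other lists (y axis, number tested in brackets); red rose, blue fell, grey did not pass, black bars are medians. The effector set has its median at 0.58, the Oas, Ifit and Gbp lists at 0.99, 0.71 and 0.82, and the family relatives at -0.01.

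Limits of counting touch some of these values. Exons of 11 of the 33 genes overlap another annotated gene, and 12 genes share no 50-base word with another gene. Among the 19 tested genes with no exon overlap and under 5% shared words, 15 rose and 1 fell.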

How the data were processed

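MPC5 cells were profiled by poly(A) mRNA-seq in 12 libraries (6 vector, 6 SPARCoe). The authors deposited read counts per Ensembl gene and FPKM values for the same genes. The tools, per the submitters' processing notes, include HISAT2, Bowtie2, SAMtools, Picard, featureCounts and edgeR, with no version or role; genome build, annotation and strand setting: not given in the sources used here. Each deposited FPKM value equalled the count over library total and 1 length per gene (31742 of 31742 genes, within 0.001 bases). Among deposited counts of 1 or 2, 56.67% were 2; how read pairs were counted is not given in those sources. The floor of 3 counts covers counting error only, while the 95% intervals of fold changes come from the edgeR fit and include the spread between libraries. No library repeated another: chi-square over its degrees of freedom was 3.82 to 7.30 in the 30 same-group pairs.

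Symbols came from a reference table (55141 of 55487 IDs). The fit used edgeR 4.0.16 in R 4.3.3: TMM factors, filterByExpr, a robust quasi-likelihood fit on all 12 libraries, and Benjamini-Hochberg adjustment over 15734 genes. The SE is the log2 fold change divided by the square root of F. Positions and transcripts were from GENCODE M21 and promoters from RefSeq (GRCm38.p6). Bases 251 to 275 of 31 of 35 windows matched an own transcript as given and 0 matched in reverse. Alternatives covered other factors, filters, DESeq2 1.42.0, limma 3.58.1 on counts and FPKM, and each library left out.

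The members, lists and tests were chosen with earlier results of these data known. Ranges over libraries are given for the member with the largest fold change per role group and for members that did not pass or fell; Bst2 and Ly6e were added. From other lists up to 4 genes with the smallest adjusted p are named, with Parp10, Nphs1, Ptprc and other single markers named for their role; a few listed genes are not reported here.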

Additional observations from a re-analysis of the deposited data

Results flagged for a closer look

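Among the 64 sets of 6 libraries examined (32 tested genes, each in vector and in SPARCoe), 2 held a library far from the other 5, where chance gives about 1 in 20. For Adar, vector replicate 2 was the lowest at 159.0 CPM. For Trafd1, SPARCoe replicate 3 was the highest at 74.5 CPM. Both genes rose with that library left out, with log2 fold changes of 0.37 to 0.39 for Adar and 0.58 to 0.63 for Trafd1 over all single libraries left out.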

How the results depend on the processing

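Over 25 alternatives the count of effector genes that rose lay between 24 and 28, 1 fell in each, and no gene of the 32 changed direction; 28 of the 32 kept their call in every alternative that gave a value. The exceptions were Daxx, Ly6e and Pml, which did not pass by glmTreat against a 1.2-fold change (24 rises), and Nmi, which passed in 8 alternatives. Mx1 passed in none of its 22. The median log2 fold change was 0.54 by limma on log2(FPKM + 1), with and without a filter, and 0.57 to 0.61 with single libraries left out. Over all tested genes, 854 rose and 138 fell by glmTreat against 1.2-fold. Same-numbered libraries did not deviate together over all tested genes (correlations of -0.011 to 0.015), so no pairing by number was seen. A pairing that touches few genes could be missed by these correlations. With the replicate block 28 effector genes rose, Nmi being the one added (edgeR adjusted p = 0.0416). Leaving out single libraries moved the rises among the endothelial and plasmacytoid dendritic cell markers between 1 and 3. Low counts limit Ifitm1, Mx1 and the interferon genes.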

Other observations

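Chrnb2, a nicotinic receptor subunit gene whose exons overlap Adar on the opposite strand, had 690 counts in vector and 1042 in SPARCoe in all. Masp1, which overlaps Rtp4 without shared exons, had 5271 and 5474 counts. Tlr7, an endosomal RNA sensor among the plasmacytoid dendritic cell markers, had 35 and 83 counts in all and rose (edgeR adjusted p = 0.0212). At 35 counts in vector it met the filter on low counts only with the SPARCoe libraries, so its call is no support of its own. Tcf4 and Runx2 of that list did not pass (edgeR adjusted p = 0.831 and 0.066).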
